A study of Mus musculus with 22 samples.

Results

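Claudins, numbered cadherins, connexins, occludin and the zonula occludens scaffold genes were described in colon tumours that the carcinogen azoxymethane had induced in mice. A gene was a member when its symbol began with Cldn, Cdh, Tjp, Gja, Gjb, Gjc or Gjd followed by a digit, or was Ocln. This gave 73 genes among the 19505 symbols named on the array, with 1 probe set each: 32 claudin genes (9 of them of the Cldn34 family), 23 cadherins, 15 connexins, Ocln, Tjp1 and Tjp3. The 22 tumours came from male FVB/N mice, an inbred strain, on 4 regimens. The control group (6 mice) was kept on low-fat chow, 10% of calories being fat, without sulindac. The obese group (5 mice) received a diet of 60% fat calories without sulindac. The obese sulindac group (6 mice) had that same rich diet plus sulindac, an inhibitor of cyclooxygenase enzymes. The formerly obese group (5 mice) changed from the rich diet to the lean diet and had no sulindac. Tumours are named by the mouse number of their title, which is Mouse_X for 1 obese sulindac tumour. The labels give neither the carcinogen's dose nor the mice's age, and neither normal colon nor unexposed mice were analysed here. They name no batch or litter, so the p-values measure only the spread between these tumours.

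Epithelial cells of the colon hold together through a belt of junctions near their apical side. Claudins and occludin span the membrane at the tight junction, where some claudins seal the space between cells and others form pores for ions, and the Tjp proteins tie them to actin. Cadherins bind their own kind on the neighbouring cell and anchor the adherens junction, with a different cadherin in epithelium, endothelium and mesenchyme. Connexins assemble into gap junction channels that let small molecules pass from cell to cell.

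Levels are the deposited array values on a scale read as log2, where a difference of 1 unit is a doubling. They ran from 3.34 to 19.49 over all probe sets, with array medians of 6.67 to 6.83. Mean levels were at least 6 in 23 members and under 6, below every array's median, in 50, and no test of detection above background was used here. Each tumour was a piece of tissue with several cell types, so fewer cells of a type and less RNA per cell cannot be told apart in any result that follows. Cdh17, the liver and intestine cadherin, lay between 15.77 and 17.09 in the 22 tumours. The brush border gene Vil1 had regimen means of 13.87 in control, 13.54 in obese, 13.24 in obese sulindac and 13.69 in formerly obese tumours. It is 1 of 11 measured markers of absorptive colonocytes, and most of the others went another way. Of the 11, 9 had higher means in obese sulindac than in obese tumours, where Vil1 was lower. In formerly obese against control tumours 10 of the 11 had higher means, and Vil1 again was lower.

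The stretch upstream of the gene start is shown for 4 of the members whose levels varied most or moved with a marker list in the results that follow. The windows are the 250 bases before the start in RefSeq's mouse assembly GRCm38.p6, 5′ to 3′ on the gene's own strand, and capitals mark matches to the motifs named after them. Cldn15 (chr5:136967619-136967868, plus strand) varied most between tumours, Cldn2 (chrX:139800558-139800807, plus strand) encodes a pore-forming claudin, Cldn6 (chr17:23679115-23679364, plus strand) stood out in a single tumour, and Gjb2 (chr14:57104703-57104952, minus strand) lay lower where WNT and stem cell markers were high.
Cldn15: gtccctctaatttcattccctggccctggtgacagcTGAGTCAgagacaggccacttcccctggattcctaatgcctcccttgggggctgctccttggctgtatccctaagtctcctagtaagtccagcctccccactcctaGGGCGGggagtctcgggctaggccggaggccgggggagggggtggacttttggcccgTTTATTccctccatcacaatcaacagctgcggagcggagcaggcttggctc
Cldn2: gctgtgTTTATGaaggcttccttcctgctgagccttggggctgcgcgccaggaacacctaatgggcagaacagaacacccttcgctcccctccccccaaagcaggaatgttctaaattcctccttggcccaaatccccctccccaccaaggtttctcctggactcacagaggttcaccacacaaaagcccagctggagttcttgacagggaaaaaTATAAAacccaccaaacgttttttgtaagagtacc
Cldn6: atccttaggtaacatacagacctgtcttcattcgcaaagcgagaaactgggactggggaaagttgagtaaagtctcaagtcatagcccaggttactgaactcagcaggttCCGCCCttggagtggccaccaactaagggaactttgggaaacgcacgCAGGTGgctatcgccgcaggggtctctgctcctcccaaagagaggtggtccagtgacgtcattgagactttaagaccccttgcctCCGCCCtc
Gjb2: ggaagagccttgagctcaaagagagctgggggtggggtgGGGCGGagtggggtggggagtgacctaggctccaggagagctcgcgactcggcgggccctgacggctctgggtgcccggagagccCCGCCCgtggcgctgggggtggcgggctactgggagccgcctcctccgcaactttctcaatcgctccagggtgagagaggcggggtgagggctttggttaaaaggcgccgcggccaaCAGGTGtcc
The 7 motif spellings were searched on both strands, and the matches did not overlap one another in these windows. Upstream of Cldn15 stood an AP-1 spelling (TGANTCA), a GC box (GGGCGG) and a CDX variant (TTTATT). The Cldn2 window held the CDX spelling TTTATG at 244 to 239 bases before the start and a TATA box (TATAAA) at 35 to 30 bases. Cldn6 and Gjb2 each held 2 GC boxes and the E-box CAGGTG, which in Gjb2 lay 9 to 4 bases before the start. The TCF/LEF spelling CTTTGAT was found in none of the 4 windows. For Cldn7, which also moved with a marker list, 1 of its 2 windows was searched in the same way. It held 0 matches to the 7 spellings and is not shown. Over the 32851 windows of the table, TGANTCA was in 6.75%, GGGCGG in 32.7%, TTTATT in 18.1%, TTTATG in 10.8%, TATAAA in 12.4%, CAGGTG in 17.2% and CTTTGAT in 3.21%. Of the 73 members, 53 had at least 1 window in the table, 69 windows in all. Of these 53, 23 held a GC box, 12 the E-box, 14 TTTATT, 6 TATAAA, 6 TGANTCA, 5 TTTATG and 1 CTTTGAT. A member was counted when any of its windows matched, so these counts cannot be set directly against the shares per window. Median GC content over all windows was 52.4%, against 69.2% for Gjb2, 60.8% for Cldn15, 53.6% for Cldn6 and 52% for Cldn2.

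The most variable members differed widely between tumours, but not within every regimen: Cldn6 spanned 5.33 to 6.07 in obese and Cldn8 8.08 to 9.13 in control tumours, and 34% of the variance of Cldn8 lay between regimens. Over the 22 tumours the median SD of the 73 members was 0.34 log2 units, against 0.35 for all 22203 probe sets. An SD above 1 was seen in 6 members (8.22%) and in 4.81% of all probe sets. These 6 were Cldn15, Cldn6, Cdh13, Cldn2, Cdh2 and Cldn8. The regimens accounted for a median of 11.8% of a member's variance and of 12.8% over all probe sets.

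Cldn15, which forms paracellular channels for sodium in the intestine, had an SD of 1.87 and spanned 6.26 to 13.51, more than 7 log2 units apart. In the 5 obese tumours its levels were 6.48, 11.30, 10.06, 7.99 and 7.90, and in the 5 formerly obese tumours 11.95, 7.98, 7.13, 7.46 and 9.52. Control tumours ran from 7.21 through a median of 7.48 to 13.51, and obese sulindac tumours from 6.26 through 8.32 to 10.96. Every regimen held a tumour at 10.96 or above and a tumour at 7.21 or below, so the groups overlapped widely, and 0.47% of the variance lay between regimens. The highest tumour was control Mouse_20, followed by formerly obese Mouse_134 at 11.95.

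Cldn2, a pore for cations and water that is typical of leaky epithelia, spanned 7.88 to 12.28 (SD 1.12). The control tumours Mouse_26 and Mouse_27 were highest, at 12.28 and 11.72, and obese sulindac Mouse_X was lowest. Regimen means of Cldn2 were 10.31 ± 1.5 in control, 9.97 ± 1.02 in obese, 9.40 ± 0.92 in obese sulindac and 9.40 ± 0.89 in formerly obese tumours (SD, n = 6, 5, 6 and 5). Each of these means lay within 1 SD of every other regimen's mean, measured by the larger SD of the pair.

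Among the sealing claudins, Cldn8, which limits the back-leak of sodium in the distal colon, spanned 6.78 in obese Mouse_101 to 11.67 in obese sulindac Mouse_X (SD 1.09). Cldn1, another sealing claudin, spanned 4.90 in obese Mouse_96 to 8.13 in obese sulindac Mouse_114 (SD 0.83). Cldn23, found at the surface of colonic epithelium, spanned 8.73 in obese Mouse_113 to 11.20 in formerly obese Mouse_134 (SD 0.73).

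**Figure D1:**
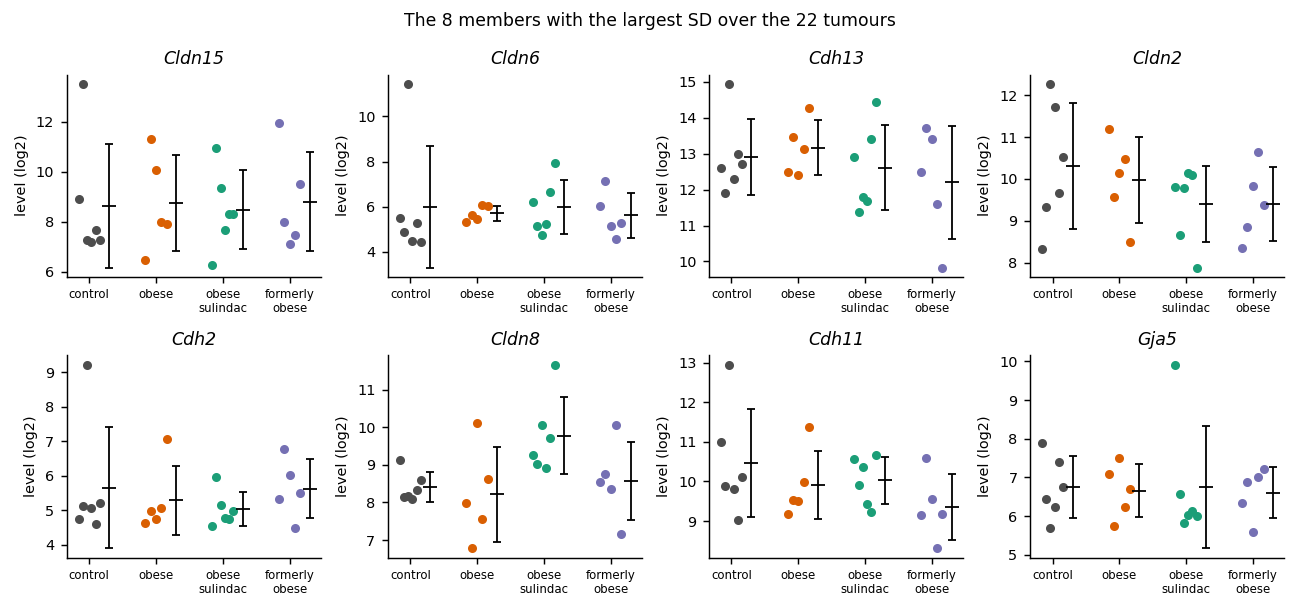
Log2 level (vertical axes) of the 8 members with the largest SD over the 22 tumours, by regimen. Points are tumours, and the horizontal mark and bar are the mean and SD of the 6 control, 5 obese, 6 obese sulindac and 5 formerly obese tumours. Single tumours stand far from their regimen for Cldn15 (13.51 in a control tumour), Cldn6 (11.45), Cdh2 (9.22) and Gja5 (9.92).

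The cadherins of mesenchyme and nerve showed the same kind of spread. Cdh2 (N-cadherin) was between 4.49 and 7.05 in 21 tumours and at 9.22 in control Mouse_26. Cdh13, a cadherin held in the membrane by a lipid anchor, spanned 9.83 in formerly obese Mouse_152 to 14.95 in control Mouse_26. Cdh11, typical of mesenchymal cells, spanned 8.31 to 12.95 and was again highest in control Mouse_26.

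Control Mouse_26 was also the tumour with the highest Cldn6, a claudin of embryonic epithelium, at 11.45 against 4.42 to 7.93 in the 21 others. Its neighbouring gene Cldn9 was at 6.0 there and at most 4.58 elsewhere. Mouse_26 held the highest level of 8 of the 73 members (11%), among them Cldn2, Cldn6, Cldn9, Cdh2, Cdh11 and Cdh13, and the highest level of 7.93% of all probe sets. That tumour was low in other members: its Gjb5 of 5.15 was the lowest of the 22, and its Cdh17 of 15.86 was close to the lowest, 15.77. Its level of the absorptive colonocyte list was 10.23, where the 22 tumours ran from 9.69 to 14.98, and its level of the WNT and stem cell list was the highest, at 13.06.

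The 15 connexins had a median SD of 0.32 log2 units, beside 0.35 for all probe sets. An SD above 1 was seen in 0 of them and in 4.81% of all probe sets. With so few genes, this count does not set the family apart. The arterial connexin Gja5 was at 5.59 to 7.90 in 21 tumours and at 9.92 in obese sulindac Mouse_114, where Cdh5 (VE-cadherin) and Cldn5, both of endothelial junctions, were also at their highest, at 11.52 and 7.42. The endothelial list of that tumour was at 7.98, within the 6.53 to 8.28 of the 22 tumours, and its part in these levels was not tested. Gjb5, a connexin of stratified epithelium, was at 9.17 in obese sulindac Mouse_X and at most 7.53 elsewhere.

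**Figure D2:**
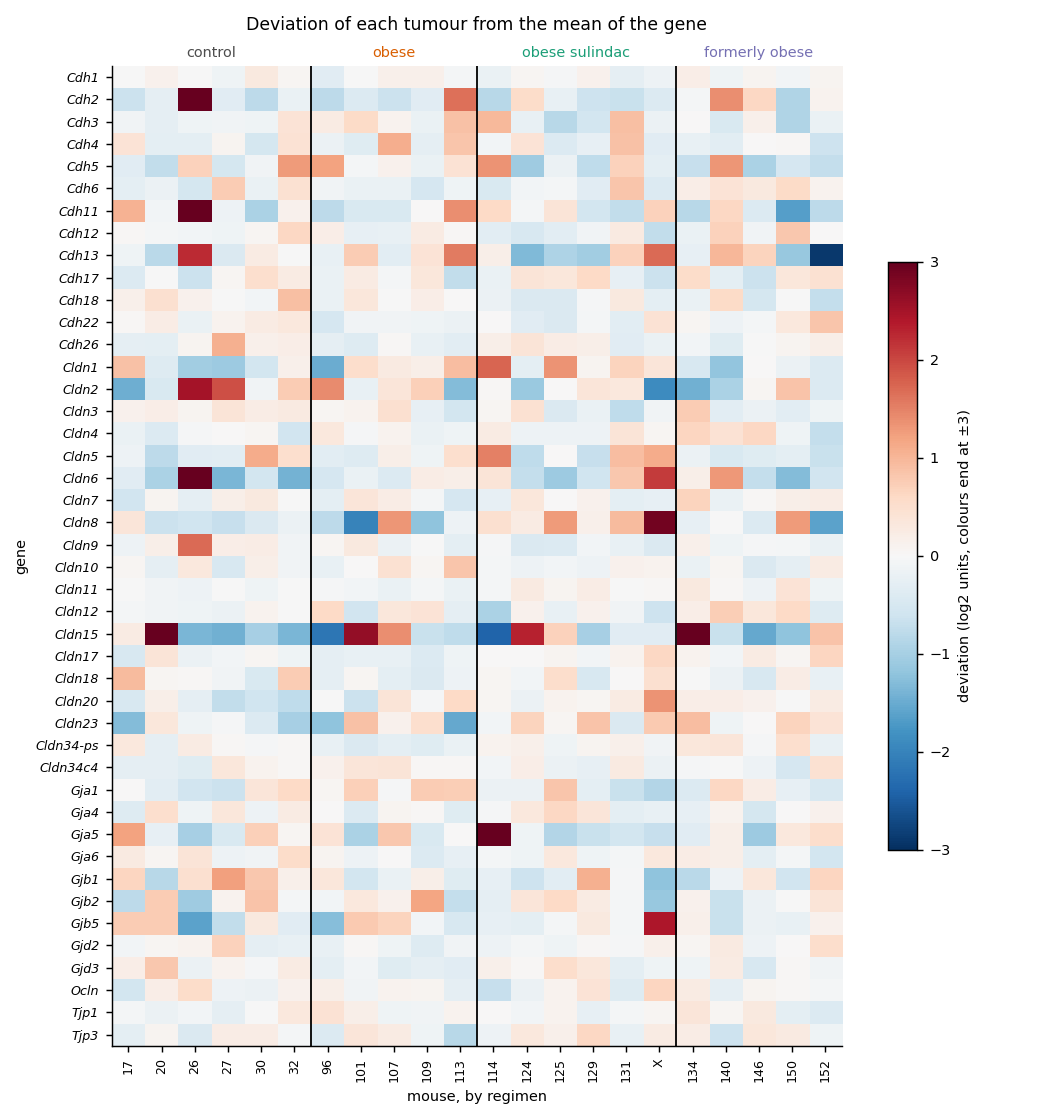
Deviation of each tumour (columns, by regimen and mouse) from the gene's mean over the 22 tumours in log2 units, for the 44 members named by rule (rows). Colours end at 3 units in either direction; the darkest cells fall in single columns such as control Mouse_26 for Cdh2, Cdh11 and Cldn6, and no regimen forms a block of a single colour.

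For the 5 members of largest SD, the genes most like them over the 22 tumours were sought among 18391 named genes by Pearson's r, given here as a description. Cldn15 varied with Slc39a5, a zinc transporter gene, at r = 0.93, and with Pycard (0.88) and Gucd1 (0.85); without Mouse_26 the 3 values were 0.95, 0.88 and 0.84. Cdh13 varied with the WNT receptor gene Fzd10 (0.86), Def8 (0.86) and Kif1a (0.86), and Cldn2 with the transcription factor gene Onecut2 (0.81), Prl7a1 (0.78) and Gpd1 (0.76). Prl7a1 was at most 5.61 in the 22 tumours, below every array's median. For Cldn6 and Cdh2 the likeness leaned on Mouse_26. Cldn6 varied with Rfx4 at r = 0.90 and at 0.65 without that tumour, in which Rfx4, a transcription factor gene, was at 15.81 against at most 7.55 elsewhere. Cdh2 varied with Sp8 at 0.91 and at 0.76 without it, and with Zic2 at 0.90 and 0.71; both encode transcription factors, and Zic2 was at 13.22 there and at most 8.32 elsewhere.

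The core junction genes of the epithelium had regimen means close to one another. Cdh1 (E-cadherin) spanned 17.29 to 17.92 over the 22 tumours, the smallest SD of the 73 members (0.16). Its regimen means were 17.68, 17.61, 17.54 and 17.66 in control, obese, obese sulindac and formerly obese tumours. Tjp1, a scaffold of the tight junction, spanned 12.63 to 13.48, and Ocln 11.77 to 13.12 with regimen means of 12.47, 12.47, 12.46 and 12.48. For Cdh1 the 95% interval of the difference ran from -0.33 to 0.17 between obese and control, from -0.21 to 0.31 between formerly obese and obese, and from -0.31 to 0.18 between obese sulindac and obese tumours. Tjp1 was bounded in the same order by -0.17 to 0.46, -0.42 to 0.23 and -0.45 to 0.18. The epithelial claudins Cldn3, Cldn4 and Cldn7 had differences of -0.24 to 0.24 in these 3 comparisons, each with an interval that includes 0. For Cldn15 the intervals were wide, -2.23 to 2.44 between obese and control tumours, so a difference of 2 log2 units in either direction could not be told from none.

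**Figure D3:**
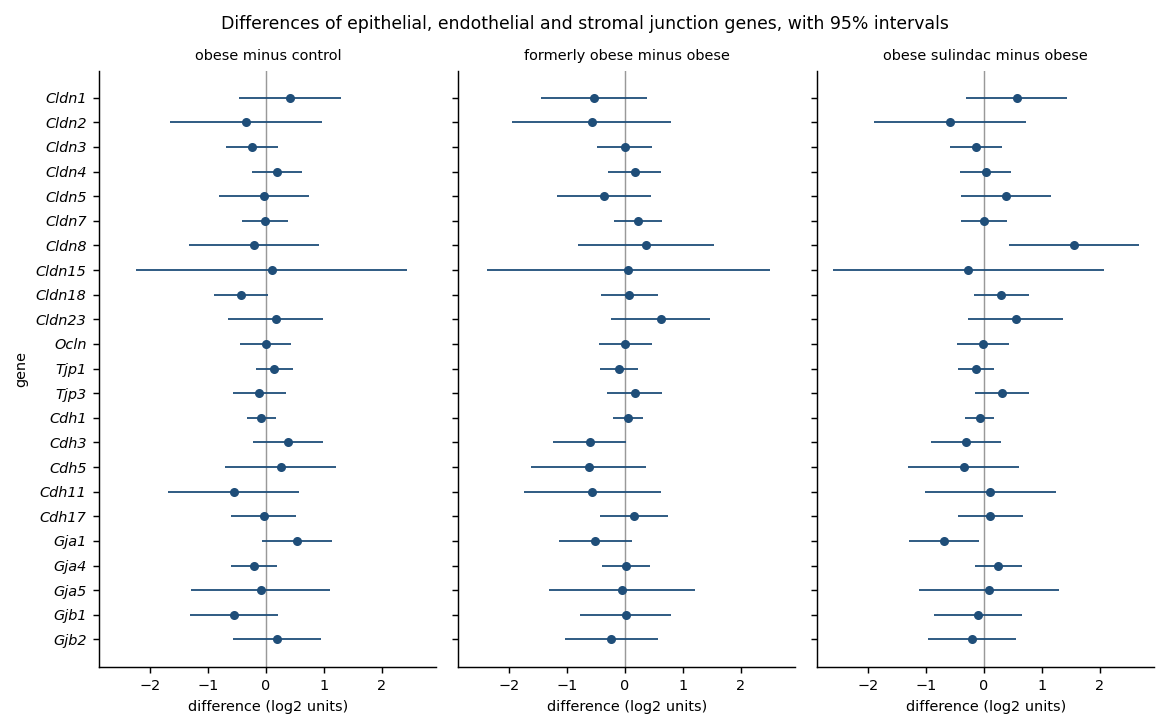
Differences in mean log2 level (horizontal axes, log2 units) of the 23 measured genes of epithelial, endothelial and stromal junctions fixed for naming, in the 3 main comparisons. Points are differences and bars 95% intervals from limma; only the bars of Cldn8 and Gja1 in obese sulindac minus obese leave out 0, and neither passed after adjustment over all probe sets.

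No member passed the test in any comparison of regimens. With limma and Benjamini-Hochberg adjustment over all 22203 probe sets, 0% of probe sets were called in each of the 6 comparisons and in the F test over the 4 regimens, and members are therefore also counted at an unadjusted p under 0.05. In the F test 3 members did so (4.11%), against 6.0% of all probe sets: Cldn34-ps, Cldn20 and Cldn8. The smallest adjusted p of a member in limma's F test was 0.757, for Cldn34-ps.

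Obese tumours were set against controls to ask what the high-fat diet does to tumour junction genes. At an unadjusted p under 0.05, 2 of the 73 members lay lower and 0 higher (2.74%). Over all probe sets 2.21% were lower and 1.82% higher, 4.03% in all. Of the 73, 33 had a higher and 40 a lower mean in obese tumours, and the median difference was -0.0037, against -0.0043 over all probe sets. The groups did not overlap in 0 members and in 0.383% of all probe sets. Gjd3, a connexin gene, was at 4.01, 4.24, 3.96, 4.05 and 3.97 in obese tumours and at 4.14 through a median of 4.46 to 5.13 in controls. Of the 5 obese tumours, 4 lay below every control, and the difference was -0.46 ± 0.17 (SE; exact permutation p = 0.0108, adjusted p = 0.9998 in limma). Cldn34-ps, whose symbol marks it as a pseudogene, was 0.36 ± 0.13 lower, on the same low part of the scale (exact permutation p = 0.00866, adjusted p = 0.9998 in limma).

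Among genes with higher levels, Cldn20 differed by 0.50 ± 0.24 (exact permutation p = 0.0779) and Gja1, the connexin of stroma and muscle, by 0.54 ± 0.29 (exact permutation p = 0.0931, 95% interval -0.06 to 1.14). Gja1 was at 12.85, 13.50, 12.76, 13.55 and 13.52 in obese tumours and at 12.15 through 12.64 to 13.38 in controls, so that 3 obese tumours lay above every control. Beside it, 7 of 8 measured fibroblast and 7 of 8 smooth muscle markers had higher means in obese tumours, with fibroblast list levels of 11.02 to 11.77 against 10.11 to 11.82 and smooth muscle list levels of 9.19 to 9.94 against 9.0 to 9.80; their part in the Gja1 values was not tested. Cldn18, a claudin of stomach and lung, had a difference of -0.42 ± 0.23 (-0.27 without control Mouse_17), and Gjb1, a connexin of gland epithelium, of -0.54 ± 0.36, both with intervals that include 0.

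The change of diet after obesity was examined as formerly obese against obese tumours, a comparison that shares the obese tumours with the one before. At an unadjusted p under 0.05, 4 members lay higher and 0 lower in formerly obese tumours (5.48%). Over all probe sets 2.77% were higher and 2.91% lower, 5.69% in all. Cdh6, a cadherin of kidney and developing tissues, was at 5.39, 5.6, 5.48, 5.78 and 5.31 in formerly obese and at 5.10, 5.01, 4.99, 4.70 and 5.07 in obese tumours. The groups did not overlap, and the difference was 0.54 ± 0.24 (exact permutation p = 0.00794, the smallest that 5 against 5 tumours allow; adjusted p = 0.866 in limma). Cldn17, which forms pores for anions, was at 4.30, 4.11, 4.43, 4.24 and 4.84 against 3.93, 3.97, 3.96, 3.77 and 4.05. Its groups did not overlap either, and the difference was 0.45 ± 0.16 (exact permutation p = 0.00794, adjusted p = 0.866 in limma). These 2 of 73 members (0.878% of all probe sets did not overlap in this comparison) lie near the bottom of the scale. The remaining genes were Cldn34-ps, with a difference of 0.50 ± 0.14, and Cdh22, with 0.40 ± 0.18 (0.24 without formerly obese Mouse_152).

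No member lay lower in formerly obese tumours at an unadjusted p under 0.05. Cdh3 (P-cadherin) came nearest with -0.60 ± 0.30 (exact permutation p = 0.0635, adjusted p = 0.878 in limma); its levels were 5.42, 4.97, 5.57, 4.52 and 5.22 in formerly obese and 5.67, 5.99, 5.53, 5.22 and 6.30 in obese tumours, with overlap. Cdh13 had a larger but more variable difference of -0.96 ± 0.69, and without formerly obese Mouse_152 it was -0.37. Gja1 differed by -0.51 ± 0.30, beside lower means of all 8 measured fibroblast markers (list levels 10.01 to 11.70 against 11.02 to 11.77) and higher means of 7 of 8 smooth muscle markers. Smooth muscle list levels were 8.88 to 11.96 against 9.19 to 9.94, with formerly obese Mouse_134 at 11.96 and the other formerly obese tumours at 10.18 or below. The part of these markers in the Gja1 values was not tested.

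Sulindac was examined as obese sulindac against obese tumours, with the same 5 obese tumours once more. At an unadjusted p under 0.05, 4 members lay higher and 1 lower (6.85%). Over all probe sets 3.07% were higher and 3.48% lower, 6.55% in all. Cldn8 had the largest difference. Its levels in the 5 obese tumours were 7.99, 6.78, 10.11, 7.57 and 8.62, and in the 6 obese sulindac tumours they ran from 8.93 through a median of 9.48 to 11.67. All 6 obese sulindac tumours lay above 4 of the 5 obese tumours, and obese Mouse_107 overlapped them. The means were 9.77 ± 1.02 and 8.21 ± 1.25 (SD), a difference of 1.56 ± 0.54 (95% interval 0.44 to 2.68). It did not pass after adjustment (adjusted p = 0.677 in limma), and the exact permutation test of the means over 462 regroupings gave a two-sided p of 0.0498 before adjustment. Without obese sulindac Mouse_X the difference was 1.18, and without obese Mouse_107 it was 2.03. Beside it, 9 of the 11 measured absorptive colonocyte markers had higher means in obese sulindac tumours, whose list levels ran from 10.71 to 12.27 against 9.69 to 11.53; their part in the Cldn8 values was not tested.

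Gja1 was the member with a lower level. It ran from 11.91 through 12.55 to 13.63 in obese sulindac tumours, where 5 of 6 lay below every obese tumour (12.76 to 13.55) and Mouse_125 lay above all of them. The difference was -0.68 ± 0.29 (adjusted p = 0.721 in limma, exact permutation p = 0.0476). All 8 smooth muscle markers and 5 of 8 measured fibroblast markers had higher means in obese sulindac tumours, with list levels of 9.36 to 10.69 against 9.19 to 9.94 and of 10.82 to 12.13 against 11.02 to 11.77, and their part in the Gja1 values was not tested. Cldn17 (0.37 ± 0.16) and Cldn34-ps (0.35 ± 0.13) were higher without overlap of the groups, as in 0.676% of all probe sets, and Gjd3 was higher by 0.37 ± 0.17. Cldn1 had a difference of 0.57 ± 0.42, with an interval of -0.31 to 1.45; it was 0.18 without obese Mouse_96 and 0.35 without obese sulindac Mouse_114.

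**Figure D4:**
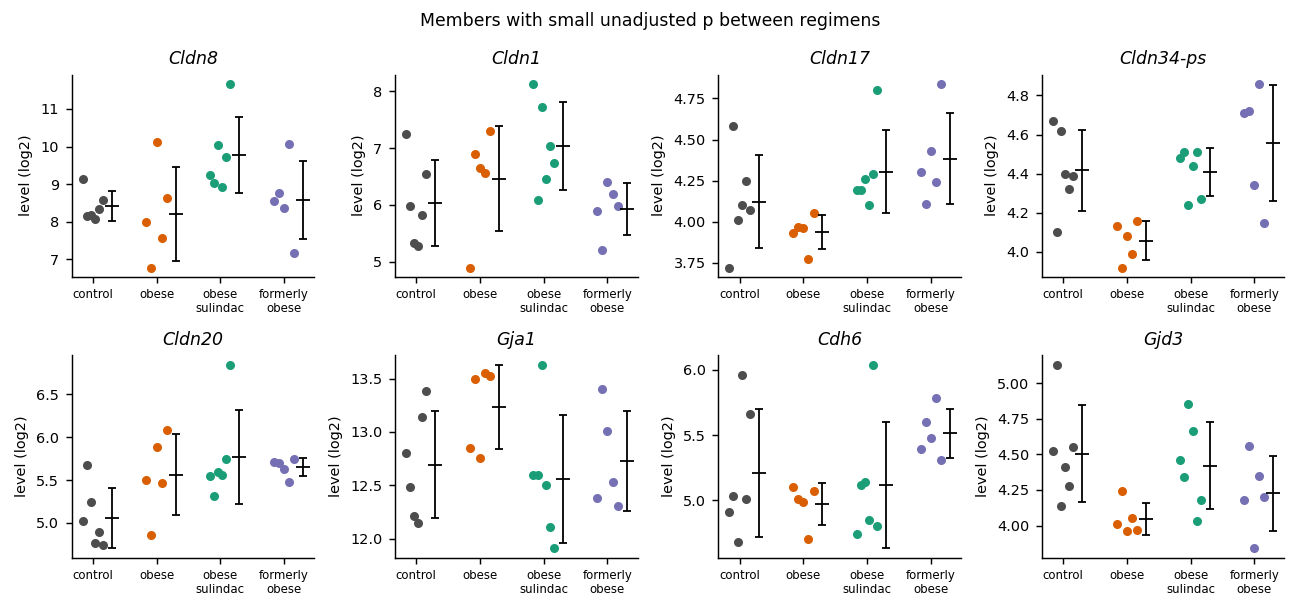
Log2 level (vertical axes) by regimen of 8 members with an unadjusted p under 0.05 in at least 1 comparison. Points are tumours and bars the mean and SD; Cldn8 is highest in obese sulindac tumours (mean 9.77), Cldn17 and Cldn34-ps are lowest in obese tumours (means 3.94 and 4.06), and no difference passed adjustment over all probe sets.

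In the other comparisons of regimens, which reuse the same tumours, Cldn8 and Cldn1 were again highest in obese sulindac tumours. Against controls, obese sulindac tumours had 5 of 73 members at an unadjusted p under 0.05 (6.85%, against 6.63% of all probe sets). Cldn20 was higher by 0.71 ± 0.23 (adjusted p = 0.613 in limma), Cldn8 by 1.37 ± 0.51 and Cldn1 by 0.99 ± 0.40, while Cldn9 differed by -0.62 ± 0.22 (-0.34 without control Mouse_26) and Cdh18 by -0.43 ± 0.20. Cldn8 in controls lay between 8.08 and 9.13, and 4 of the 6 obese sulindac tumours were above every control. Formerly obese against obese sulindac tumours gave 5 members (6.85%, against 6.62%), with Cldn1 at -1.10 ± 0.42, Cldn8 at -1.20 ± 0.54 and Cldn12 at 0.57 ± 0.23. Cdh12, another of the 5, was higher by 0.52 in formerly obese tumours. Formerly obese against control tumours gave 1 member (1.37%, against 5.54%), Cldn20, at 0.60 ± 0.24.

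Partners of these genes at the junctions were followed in lists drawn from textbook knowledge, and 0 of their genes passed in limma in any of the 6 comparisons. At an unadjusted p under 0.05 a comparison held 1 or 2 of 20 measured tight junction partners, 0 to 2 of 11 adherens junction partners, 0 to 3 of 11 desmosome genes and 0 or 1 of 5 transcription factors that repress Cdh1, where 4.03% to 6.63% of all probe sets had such a p. Of 11 measured desmosome genes, 10 had lower means in obese than in control tumours, and 3 had an unadjusted p under 0.05 in limma. The median difference was -0.32, beside -0.0043 over all probe sets. Levels of the desmosome list overlapped, at 9.75 to 11.03 in obese and 10.17 to 11.33 in control tumours, with obese Mouse_113 at 9.75. The plakophilin gene Pkp1 was 0.74 ± 0.30 lower and Evpl, a cross-linker of the cell envelope, 0.40 ± 0.18 lower (adjusted p = 0.9998 in limma for both). Adherens junction partners were lower in 9 of 11 (median -0.18), including the adaptor gene Plekha7 at -0.36 ± 0.17. Levels of their list overlapped too, at 10.42 to 10.85 in obese and 10.70 to 11.13 in control tumours. Nectin4, an adhesion molecule, was 0.79 ± 0.35 higher in obese sulindac than in obese tumours (adjusted p = 0.738 in limma). In the same comparison of obese with control tumours, 11 of 11 measured absorptive colonocyte markers (median -0.49) and 8 of 8 goblet markers (-0.36) had lower means. Higher means were seen in 7 of 8 leukocyte markers (0.58). An unadjusted p under 0.05 in limma was seen in 0 absorptive, 0 goblet and 1 leukocyte markers, and in 4.03% of all probe sets. In formerly obese against obese tumours all 11 measured adherens partners were higher (median 0.14) and 9 of 11 desmosome genes were (median 0.16), with 0 at an unadjusted p under 0.05. There, 11 of 11 absorptive colonocyte markers (median 1.66) and 8 of 8 goblet markers (0.94) had higher means. Lower means were seen in 8 of 8 fibroblast (-0.51) and 7 of 8 leukocyte markers (-0.58). An unadjusted p under 0.05 in limma was seen in 4 absorptive, 0 goblet, 2 fibroblast and 0 leukocyte markers, and in 5.69% of all probe sets. List levels in obese, control and formerly obese tumours were 9.69 to 11.53, 10.23 to 12.73 and 10.98 to 14.98 for absorptive colonocytes, and 9.82 to 14.38, 11.14 to 14.46 and 12.43 to 14.66 for goblet cells. The absorptive level of 14.98 was that of formerly obese Mouse_134, and the other formerly obese tumours were at 12.46 or below. The part of these cell types in the junction lists was not tested. Since the values for formerly obese tumours share the obese tumours, they are not independent of the difference from controls.

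Partners at the tight junction were split in direction: 9 of 20 were higher and 11 lower in obese against control tumours, 12 and 8 in formerly obese against obese tumours, and 8 and 12 in obese sulindac against obese tumours. The polarity gene Pard6b was higher in formerly obese tumours by 0.97 ± 0.29 (adjusted p = 0.866 in limma). Mpp5, a scaffold gene of cell polarity, differed by -0.41 ± 0.18 between obese sulindac and obese tumours (adjusted p = 0.721 in limma). Among the repressors of Cdh1, Twist2 was higher in obese sulindac than in obese tumours by 0.84 ± 0.34 (adjusted p = 0.708 in limma), while Cdh1 differed by -0.07 ± 0.12, and Snai1 differed by -0.53 ± 0.26 between formerly obese and obese tumours. In all 3 main comparisons the 3 pannexin genes, which also form membrane channels, had 0 members at an unadjusted p under 0.05; Panx1 and Panx2 differed by 0.25 ± 0.17 and -0.20 ± 0.20 between obese sulindac and obese tumours.

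Levels of members were then related to each other and to known marker genes across the 22 tumours, in 27 pairs chosen from cell types and gene neighbours. With Pearson's r and Benjamini-Hochberg adjustment over the 27, 0 pairs passed at 0.05, and 6 had an unadjusted permutation p under 0.05. Cdh5 and Pecam1, both of endothelium, gave r = 0.62 (permutation p = 0.00199, adjusted p = 0.0537) and rho = 0.70 (permutation p = 0.00045, adjusted p = 0.0121). Without the 2 tumours farthest from the median of Cdh5, r was 0.58, and for deviations from the regimen means it was 0.59. Cldn3 and Cldn7, both expressed by colonic epithelium, gave r = 0.57 (permutation p = 0.00614, adjusted p = 0.0799) and rho = 0.54 (adjusted p = 0.101), 0.67 for deviations from regimen means and 0.38 without the 2 farthest tumours, of which formerly obese Mouse_134 alone took r to 0.44.

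Cldn23 and the chloride exchanger gene Slc26a3 gave r = 0.54 (adjusted p = 0.0799) and rho = 0.47, and Cdh17 and its known regulator Cdx2 gave 0.48 and 0.48 (adjusted p = 0.139 and 0.149). Cldn5 and Cdh5 gave 0.47 and 0.55 (adjusted p = 0.139 and 0.101). The neighbours Cldn6 and Cldn9 gave r = 0.64, which rested on Mouse_26: rho was -0.02 and r without that tumour -0.30. The neighbours Cldn3 and Cldn4 gave r = 0.02, Tjp1 and Ocln 0.08, Gja5 and Gja4 -0.02, and Cldn4 and Cldn7 0.03, none of which passed.

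Marker lists of 10 cell types and states were also set against the members, a relation looked for after the data had been seen. The level of a list in a tumour was the mean log2 level of its measured genes, and the permutation p-values of r were adjusted over all 221943 combinations of probe set and list. In this family 7 of 730 combinations with members passed (0.959%), against 0.583% of all. An unadjusted permutation p under 0.05 was seen in 75 of the 730, and in 10.4% of all. The list of WNT targets and stem cell genes (Lgr5, Ascl2, Axin2, Nkd1, Notum, Sox9, Znrf3, Lrp8 and Smoc2) held 5 of the 7, which is 6.85% of the members against 2.58% of all probe sets. With this list 13 of the 73 members had an unadjusted permutation p under 0.05, beside 21.65% of all probe sets, so members were not favoured at that threshold.

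Cdh13 was higher (r = 0.84) and Cdh17 lower (r = -0.83) where this list was high, each with a permutation p of 1e-05, the smallest that 100000 permutations can give, and an adjusted p of 0.00936. Their rank correlations were 0.80 and -0.85 (adjusted p = 0.0106 for both), and without the 2 tumours with the most extreme list levels, control Mouse_26 and formerly obese Mouse_152, r was 0.72 and -0.82. As the level of the list went from 10.19 in formerly obese Mouse_152 to 13.06 in control Mouse_26, Cdh13 went from 9.83 to 14.95 and Cdh17 from 16.97 to 15.86. Within regimens the relations had the same size, with r of deviations from the regimen means of 0.82 and -0.84.

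Gjb2, a connexin of epithelium, was lower where the WNT and stem cell list was high (r = -0.72, adjusted p = 0.0419; rho = -0.80, adjusted p = 0.0255). Its lowest levels, 5.49 and 5.58, were in obese sulindac Mouse_X and control Mouse_26, where the list was at 12.38 and 13.06. Cdh11 (r = 0.70, adjusted p = 0.0288) and Cldn6 (r = 0.67, adjusted p = 0.0429) were higher with the list by Pearson's r but did not pass by rank (rho = 0.63 for both, adjusted p = 0.136 and 0.156). Without control Mouse_26 and formerly obese Mouse_152 their r was 0.57 and 0.58.

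Cdh5 followed the endothelial list, of which it is no part, at r = 0.76 (adjusted p = 0.0170) and rho = 0.74 (adjusted p = 0.0394), while 1.37% of members and 0.122% of all probe sets passed with that list. Cldn7 followed the absorptive colonocyte list, with which 1.37% of members and 1.19% of all probe sets passed, at r = 0.72 (adjusted p = 0.0344), not passing by rank (rho = 0.67, adjusted p = 0.0968), and r was 0.59 without formerly obese Mouse_134, highest in both at 14.67 and 14.98, and obese Mouse_96. The 73 members had 0 calls with the lists for goblet cells, fibroblasts, smooth muscle, leukocytes, enteric glia and neurons, enteroendocrine and tuft cells, and foregut and squamous epithelium by Pearson's r. Of all probe sets, 0.347%, 0.342%, 0.104%, 0.960%, 0.0496%, 0.113% and 0.0225% passed with these lists in that order. An unadjusted permutation p under 0.05 was seen in 6, 10, 5, 7, 1, 8 and 2 of the 73 members in the same order, and in 8.73%, 9.64%, 7.55%, 13.6%, 5.87%, 9.20% and 4.42% of all probe sets. With the endothelial and absorptive colonocyte lists it was seen in 11 and 12 of the 73 members, and in 7.04% and 16.2% of all probe sets. By rank, Cldn15 passed with the goblet list (rho = 0.77, adjusted p = 0.0218; r = 0.67, adjusted p = 0.0681), Cdh5 with the fibroblast list (rho = 0.78, adjusted p = 0.0106; r = 0.68, adjusted p = 0.0571) and Cldn23 with the absorptive colonocyte list (rho = 0.72, adjusted p = 0.0434; r = 0.64, adjusted p = 0.0806), and none of the 3 by Pearson's r. Of the 7 calls by rank over the 10 lists, 4 were also among the 7 by Pearson's r: Cdh13, Cdh17, Cdh5 and Gjb2.

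**Figure D5:**
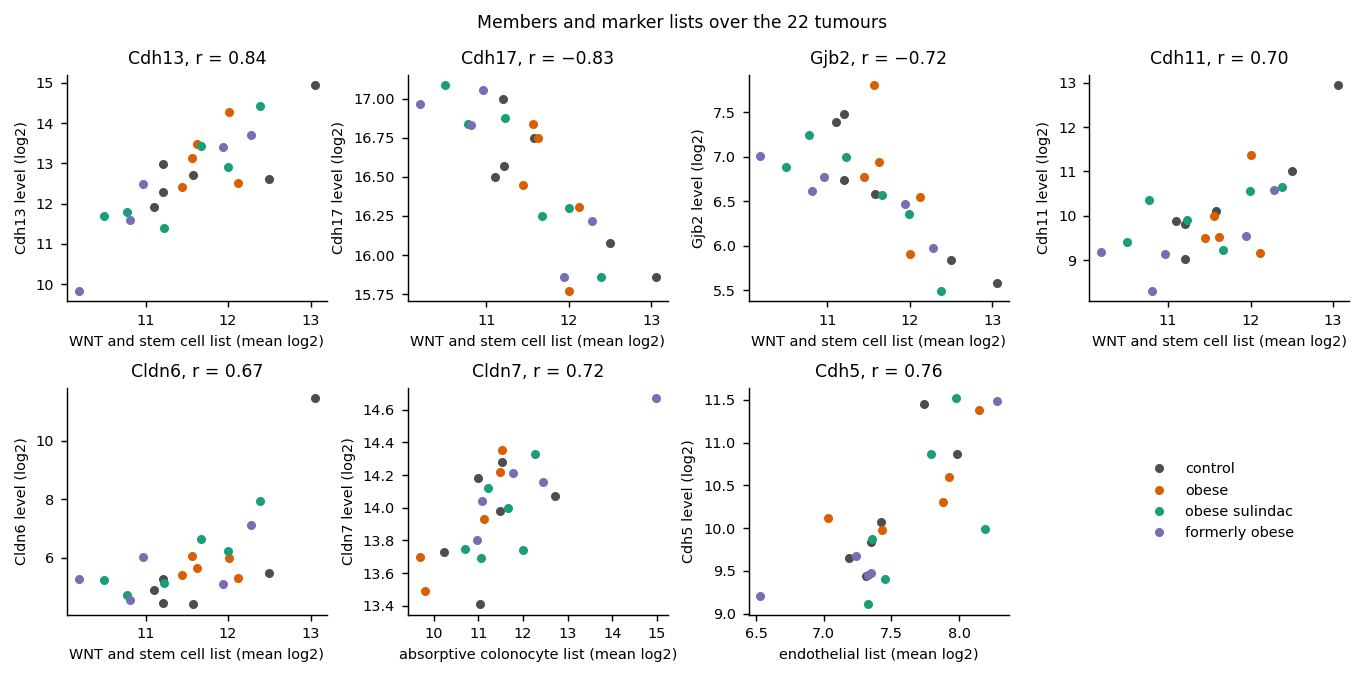
Log2 level of 7 members (vertical axes) against the mean log2 level of a marker list (horizontal axes) in the 22 tumours, coloured by regimen. Cdh13 is higher (r = 0.84) and Cdh17 lower (r = -0.83) where the WNT and stem cell list is high, Cdh5 is higher with the endothelial list (r = 0.76), and the regimens are mixed along each axis.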

How the data were processed

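Expression was measured on Clariom S arrays in 22 tumours. The deposited values are levels read as log2. Transcriptome Analysis Console 4.0 is credited to the submitters' processing notes. How probes were summarized, corrected for background and normalized is not stated in the sources used here, nor is the log base, which was read as 2 from the range of the values. Array medians lay within 6.67 to 6.83, and a difference in total RNA between tumours cannot be read from such values. Of 22203 probe sets, 19572 carried 1 gene symbol and 2631 are unnamed here. Where a symbol had several probe sets, that of highest mean stood for it.

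The 4 regimen means were estimated jointly for all probe sets with limma 3.58.1 in R 4.3.3 (lmFit and eBayes); the step was tested on simulated data. Calls were made at an adjusted p under 0.05 (two-sided, Benjamini-Hochberg over all probe sets). Intervals are 95% limma intervals, and exact permutation tests compared the means of single members. Correlations used 100000 permutations.

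Members, lists, pairs and tests were chosen with earlier results of these data known. Named are, in each main comparison, the 5 members with the smallest p in each direction; the 12 of largest SD; a fixed set of barrier, endothelial and stromal junction genes; the 3 of smallest p in each other comparison; the genes most like the 5 of largest SD; and the 2 genes of smallest p in the main comparisons from each partner list. Cdh18, Cdh22, Cldn12, Cldn20, Cldn34-ps and Gjd3 fall under these rules, and any other gene was chosen after its values were seen. Alternatives were median centring, quantile normalization, fits of 2 groups, a trended robust prior, array weights, a mean level of at least 6, the mean of all probe sets of a symbol, and leaving out each tumour. No filter on dim signals was used, and the number of arrays limits the precision.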

Additional observations from a re-analysis of the deposited data

Results flagged for a closer look

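In 176 groups (44 named members in 4 regimens), 18 had a tumour set apart from the others of its regimen by Dixon's criterion, where chance alone sets apart about 1 in 20 groups. Many of the 44 were named for a large SD or a small p, which favours such groups, so the count is not a test against that share. Control Mouse_26 stood high in 4 of them, with Cdh2 at 9.22 (next control 5.19), Cdh13 at 14.95 (12.98), Cldn6 at 11.45 (5.49) and Cldn9 at 6.0 (4.51). The other high control tumours were Mouse_20 for Cldn15 at 13.51 (next 8.90), Mouse_32 for Cdh3 at 5.83 and Cdh12 at 6.0, and Mouse_27 for Cdh26 at 6.37. Among obese sulindac tumours, Mouse_X was high in Gjb5 at 9.17, Cldn20 at 6.85 and Cldn17 at 4.80, Mouse_114 in Gja5 at 9.92 (next 6.56) and Mouse_131 in Cdh6 at 6.04. Obese Mouse_113 was high in Cdh2 at 7.05, while obese Mouse_109 was low in Cdh6 at 4.70 and obese Mouse_96 low in Cdh22 at 4.04. Formerly obese Mouse_140 was high in Cdh5 at 11.49 (next 9.67) and Mouse_134 in Cldn3 at 15.00 (next 14.12).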

How the results depend on the processing

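The 30 named differences of the main comparisons kept their direction in all 846 recalculations, and 0 passed 0.05 (smallest adjusted p 0.475 in limma). These 30 were picked from the same data for a small p, which favours a kept direction, so this is no support for them. Fits of 2 groups, the prior, the level filter and the mean of probe sets cannot change these differences. Cdh2, named for its SD, went from -0.37 to 0.35 between obese and control tumours without control Mouse_26. Members called after adjustment stayed at 0 throughout. Leaving out tumours gave 0 to 1 called probe sets for obese sulindac minus obese (1 without obese Mouse_96) and for formerly obese minus control (1 without formerly obese Mouse_152). The members at an unadjusted p under 0.05 depended on the setting. For obese minus control the 2 became 4 with median centring, 6 with array weights and 0 with a mean level of at least 6. For formerly obese minus control the 1 became 2 with quantile normalization, 2 with both groups alone, 4 with array weights and 0 with that filter. The F test gave 5 with the trended robust prior and 1 with the filter. The filter, which leaves 23 members, gave 0 for formerly obese minus obese, 2 for obese sulindac minus obese, 2 for obese sulindac minus control and 3 for formerly obese minus obese sulindac.

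Leaving out a tumour gave 2 to 6 such members for obese minus control (4 or more without control Mouse_20, Mouse_26, Mouse_27 or Mouse_30 or obese Mouse_96 or Mouse_107), 2 to 7 for formerly obese minus obese (2 without formerly obese Mouse_150, 7 without Mouse_146) and 2 to 6 for obese sulindac minus obese (2 without obese Mouse_109, 3 without obese Mouse_113 or obese sulindac Mouse_X). It gave 1 to 5 for formerly obese minus control (5 without control Mouse_20 or Mouse_27, 4 without control Mouse_30 or formerly obese Mouse_140, 3 without obese Mouse_113 or formerly obese Mouse_152, and 2 without any of 7 others). It gave 3 to 7 for obese sulindac minus control (3 without obese sulindac Mouse_125) and 2 to 7 for formerly obese minus obese sulindac (2 without formerly obese Mouse_150, 3 without formerly obese Mouse_134, Mouse_140 or Mouse_146 or obese sulindac Mouse_114, Mouse_125 or Mouse_X). The F test gave 2 to 6 (6 without formerly obese Mouse_140, 5 without control Mouse_17, obese Mouse_101, obese sulindac Mouse_129 or Mouse_131 or formerly obese Mouse_152). The cause of these changes was not tested in any setting.

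Of the 27 pairs, 1 passed by Spearman's rho, 1 by deviations from the regimen means, 2 with median centring, and 0 to 3 without a tumour (3 without obese sulindac Mouse_129, 2 without control Mouse_17, and 1 without control Mouse_26, obese Mouse_109, obese sulindac Mouse_125 or formerly obese Mouse_152). Signs turned in 47 of 702 recalculations, in 12 pairs. By rho the turned values were 0.079 for Gja5 and Gja4, -0.16 for Cldn18 and Gkn1, -0.043 for Cldn4 and Slc26a3, -0.018 for Cldn4 and Cldn7, and -0.020 for Cldn6 and Cldn9. For deviations they were -0.044 for Cldn4 and Slc26a3 and -0.076 for Cldn4 and Cldn7. Without the 2 farthest tumours they were 0.16 for Gja5 and Gja4, -0.32 for Cldn18 and Gkn1, -0.23 for Cldn4 and Slc26a3, -0.15 for Cldn4 and Cldn7, -0.081 for Cldn3 and Cldn4, -0.035 for Gja1 and Acta2, -0.089 for Cldn6 and Cldn9, and -0.052 for Tjp1 and Ocln. With median centring Cldn18 and Gkn1 gave -0.0045. Leaving out a tumour gave -0.13 to 0.081 for Gja5 and Gja4, -0.14 to 0.14 for Cldn18 and Gkn1, -0.41 to 0.019 for Cldn2 and Lgr5, -0.20 to 0.073 for Cldn1 and Axin2, -0.25 to 0.18 for Cldn4 and Slc26a3, -0.23 to 0.11 for Cldn4 and Cldn7, -0.21 to 0.16 for Cldn3 and Cldn4, -0.30 to 0.76 for Cldn6 and Cldn9, -0.35 to 0.067 for Cldn1 and Il1b, and -0.10 to 0.31 for Cldn2 and Il1b. No paired analysis was possible because the regimens share no replicate numbers.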
